A study of Mus musculus with 5 samples.

Results

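The mouse Akr1c genes encode aldo-keto reductases of the 1C subfamily, and 7 of them are described here: Akr1c6, Akr1c12, Akr1c13, Akr1c14, Akr1c19, Akr1c20 and Akr1c21. They were chosen by symbol, with the comparison of Prox1 overexpressing and Control tumours already in view, and make up 7 of the 55397 genes listed. Their levels and differences in that comparison are therefore given as a description, with no test. All 7 were detected and had a mean normalised count of at least 10.

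Aldo-keto reductases of this subfamily are soluble enzymes that use NADPH or NADH to interconvert ketones and alcohols. Their substrates include the keto groups of androgens, oestrogens, progestins, bile acid precursors and prostaglandins, and carbonyl groups of foreign compounds. The enzymes are known as hydroxysteroid dehydrogenases for this reason, and the liver is a main site of their activity.

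The profiles were bulk RNA-seq of liver tumour nodules from female C57BL/6N mice that had received plasmids by hydrodynamic tail vein injection at 8 weeks of age. In this method a large volume of plasmid solution enters the blood quickly, and hepatocytes take the DNA up. Both groups carried Sleeping Beauty transposon plasmids for Akt and for the NOTCH1 intracellular domain with rtTA behind the EF1a promoter, a combination that yields tumours resembling cholangiocarcinoma, and the CMV-driven transposase. A further plasmid had a doxycycline-responsive promoter in front of FLAG-tagged mouse Prox1 and GFP (Prox1 OE, 3 libraries) or of GFP alone (Control, 2 libraries). All mice received doxycycline food (6.25%) from day 21, and overexpression ran from week 3 to week 4. Nodules were taken at the end of that week or when a humane endpoint came first, and the labels do not tell which applied to each nodule. They were dissected without sorting, so other liver cells can be present. Nothing in the labels says that the libraries came from separate mice, and p-values then measure only the spread between these libraries, which may be technical.

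Library totals lay between 48740863 and 56629477 recovered reads and overlapped between the groups. Values are normalised counts, that is reads divided by the DESeq2 size factor of the library, and 1 read was worth 0.822 to 1.18 normalised counts. Values of single libraries are listed in the order of the replicate numbers throughout. Prox1, the overexpressed transcription factor, had 4153 and 4664 normalised counts in Control replicates 1 and 2. It had 48090, 11113 and 8231 in Prox1 OE replicates 1, 2 and 3, with reads of the plasmid and of the mouse gene counted together. Every Prox1 OE library was above both Control libraries, but the log2 fold change of 1.90 (SE 0.66) had a limma adjusted p of 0.061, above the threshold of 0.05. It passed without Prox1 OE replicate 1 (1.12, limma adjusted p 0.0056), without replicate 3 (2.39, limma adjusted p 0.032) and with edgeR (2.36, adjusted p 0.047). It also passed with the replicate number as a block (2.39, limma adjusted p 0.0012). In that fit Prox1 OE replicate 3 has no Control partner and adds nothing to the estimate, and same-numbered libraries share only a number.

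The 7 genes lie within 538 kb of chromosome 13 (GENCODE M21 on GRCm38, the sequence of mm10). From the first to the last they are Akr1c14 (chr13:4049011-4090688, plus strand), Akr1c13 (chr13:4191150-4205596, plus strand), Akr1c19 (chr13:4228700-4252843, plus strand), Akr1c12 (chr13:4268176-4279433, minus strand), Akr1c6 (chr13:4434306-4457877, plus strand), Akr1c20 (chr13:4486849-4523345, minus strand) and Akr1c21 (chr13:4574075-4586541, plus strand). All are annotated as protein coding. Akr1c18 lies between Akr1c14 and Akr1c13, and Akr1e1 follows Akr1c21.

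Each of the 7 has a coding sequence of 969 bases, so that the copies can be compared position by position. The first 90 coding bases of each are shown because they show which genes are near copies, whose reads are hardest to assign. They come from GENCODE M21 transcripts of GRCm38, begin at the start codon, and have capitals where a base differs from the most common base at that position among these genes and Akr1c18.
Akr1c12: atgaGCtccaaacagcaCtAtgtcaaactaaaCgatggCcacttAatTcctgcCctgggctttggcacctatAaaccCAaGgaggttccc
Akr1c13: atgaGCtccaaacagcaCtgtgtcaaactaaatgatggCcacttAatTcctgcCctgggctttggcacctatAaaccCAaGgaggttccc
Akr1c19: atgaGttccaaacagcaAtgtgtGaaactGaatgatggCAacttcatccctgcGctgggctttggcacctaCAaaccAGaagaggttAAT
Akr1c14: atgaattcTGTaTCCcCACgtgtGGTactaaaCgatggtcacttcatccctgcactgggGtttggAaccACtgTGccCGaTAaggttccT
Akr1c21: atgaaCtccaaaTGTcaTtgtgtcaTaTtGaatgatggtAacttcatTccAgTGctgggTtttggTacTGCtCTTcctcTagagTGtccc
Akr1c6: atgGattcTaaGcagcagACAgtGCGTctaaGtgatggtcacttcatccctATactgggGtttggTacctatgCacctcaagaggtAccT
Akr1c20: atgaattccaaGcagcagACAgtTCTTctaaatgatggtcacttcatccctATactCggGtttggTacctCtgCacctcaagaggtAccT

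Akr1c12 and Akr1c13 carry nearly the same capitals, as do Akr1c6 and Akr1c20 along most of the stretch. Over the whole coding sequence, identity between the 21 pairs ran from 71.1% to 96.2%, with a median of 73.8%. Akr1c12 and Akr1c13 were 96.2% identical and differed at 37 positions. Akr1c6 and Akr1c20 were 92.3% identical and differed at 75 positions. Akr1c21 was nearest to Akr1c6, at 79.1%.

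**Figure D1:**
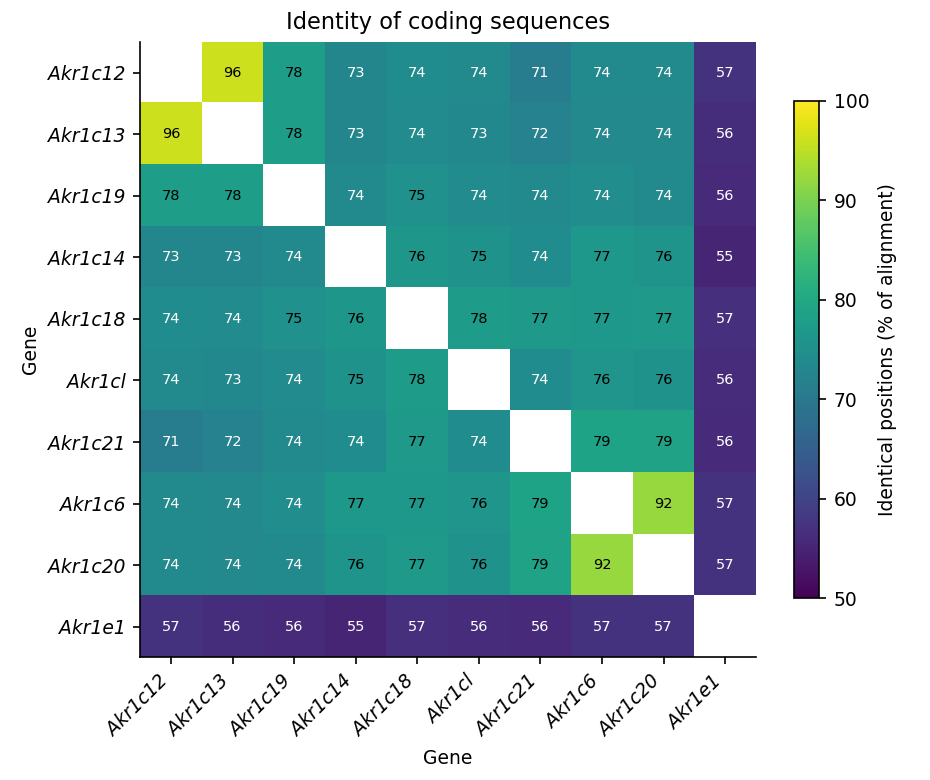
Identity of the coding sequences of the 7 Akr1c genes described and of Akr1c18, Akr1cl and Akr1e1, as the percentage of identical positions in pairwise alignments (rows and columns are genes, colour and printed value give the percentage). The pairs Akr1c12 with Akr1c13 (96.2%) and Akr1c6 with Akr1c20 (92.3%) stand above all other pairs, and Akr1e1 is the most distant.

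The near copies set how firmly single genes can be read, because how reads that fit several genes were counted is not given in the sources used here. Of the stretches of 100 bases in the longest transcript of Akr1c12, 11.5% were found unchanged in Akr1c13, and the same percentage held the other way round. At 50 bases the share was 28.6% in each, and the longest shared run was 228 bases. Akr1c6 and Akr1c20 shared no stretch of 100 bases, and their longest shared run was 65 bases. Akr1c21 shared no stretch of 50 bases with any other annotated transcript. In Akr1c14, 4.38% of stretches of 100 bases were shared with the pseudogene Gm18857, which overlaps it and had at most 5 reads in a library. In Akr1c19, 3.35% were shared with the pseudogene Marcksl1-ps4, which lies inside it and had 0 reads in all 5 libraries.

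All 7 genes had higher normalised counts in every Prox1 OE library than in either Control library, where 30.9% of the 17105 genes tested had groups that lay apart in this direction. Their log2 fold changes, on the scale of log2(normalised count + 1), ran from 0.86 to 4.89 with a median of 1.37, against a median of -0.02 over all genes tested. The 7 genes together stood at 20308 and 24294 normalised counts in Control and at 53323, 48178 and 69264 in Prox1 OE. As a share of all reads these sums were 0.0469% and 0.0530% against 0.0929%, 0.0838% and 0.106%. In bulk tissue, fewer cells of a type and less RNA per cell cannot be told apart. Nothing is read from these counts, because the genes were chosen on this comparison. Scaling by total count in place of size factors lowered the median of all genes tested from -0.02 to -0.44, with 8.62% of them called higher and 39.9% lower by limma at the threshold of 0.05 for the Benjamini-Hochberg adjusted p.

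**Figure D2:**
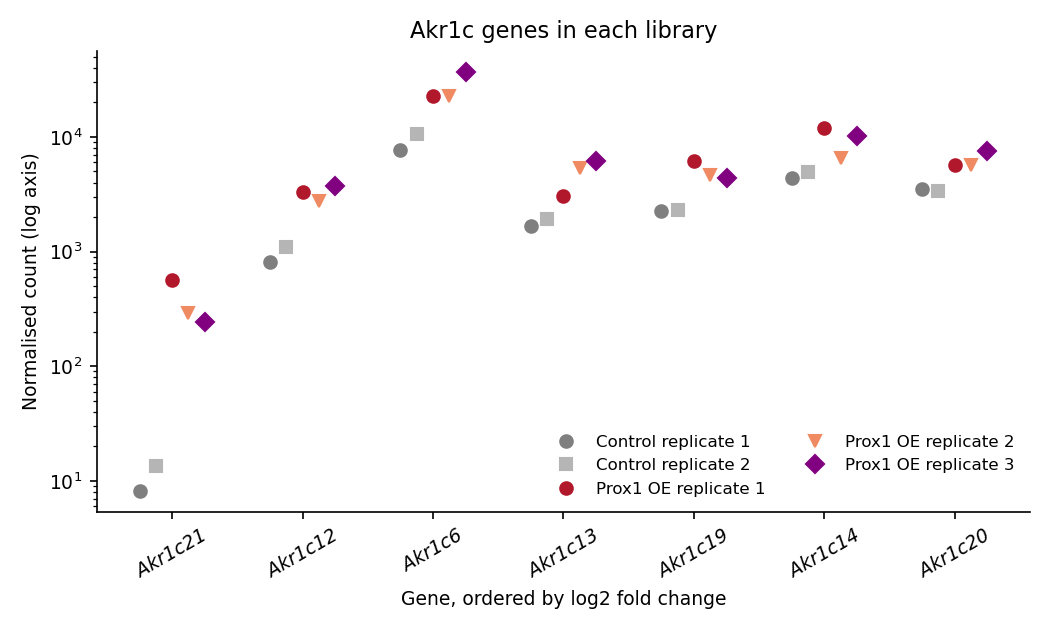
Normalised counts (log axis) of the 7 Akr1c genes in each of the 5 libraries, with genes ordered by log2 fold change and one point per library. For each gene the 3 Prox1 OE points lie above both Control points, and Akr1c21 starts near 10 normalised counts in Control where the other 6 start between 814 and 10665.

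Akr1c21, an enzyme known for 17-alpha-hydroxysteroid dehydrogenase activity and for its abundance in kidney, had the largest difference and the lowest level. Control replicates 1 and 2 had 8.22 and 13.6 normalised counts of it, and Prox1 OE replicates 1, 2 and 3 had 564, 291 and 243. The Control libraries held few reads of it, and every Prox1 OE library was at least 17.9 times the higher Control value. In reads, the Control libraries had 10 (95% Poisson interval 4.80 to 18.4) and 16 (9.15 to 26.0), and the Prox1 OE libraries 552, 247 and 210, where intervals cover counting error only. The Control mean was 10.9 ± 3.78 (SD, n = 2) and the Prox1 OE mean 366 ± 173 (SD, n = 3), a ratio of 33.6. The log2 fold change of 4.89 (SE 0.41) was 4.53 to 5.22 when each library was left out in turn. With a pseudocount of 10 it fell to 4.09.

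Akr1c12 and Akr1c13, the near copies, belong to a set of 1C enzymes described with hydroxysteroids and foreign alcohols. Akr1c12 stood at 814 and 1088 normalised counts in Control and at 3281, 2749 and 3697 in Prox1 OE, so that the lowest Prox1 OE value was 2.53 times the highest Control value. Its log2 fold change was 1.77 (SE 0.18), with means of 951 ± 194 (SD, n = 2) and 3242 ± 475 (SD, n = 3). Akr1c13 stood at 1686 and 1921 in Control and at 3051, 5309 and 6200 in Prox1 OE. Its groups also lay apart, with Prox1 OE replicate 1 well below the other 2 libraries of its group. The log2 fold change was 1.37 (SE 0.28), with means of 1803 ± 166 (SD, n = 2) and 4853 ± 1623 (SD, n = 3).

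The ratio of normalised counts of Akr1c12 to Akr1c13 set Prox1 OE replicate 1 apart. It was 0.483 and 0.567 in the Control libraries, 0.518 and 0.596 in Prox1 OE replicates 2 and 3, and 1.08 in Prox1 OE replicate 1. Per kb of exon, Akr1c12 stood at 2602 and Akr1c13 at 2128 in that library. The part that reads shared by both genes have in this ratio was not tested.

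Akr1c6, the hepatic 17-beta-hydroxysteroid dehydrogenase type 5, was the most abundant of the 7. It stood at 7722 and 10665 normalised counts in Control and at 22577, 22948 and 37035 in Prox1 OE. The lowest Prox1 OE library was 2.12 times the highest Control library, and replicate 3 stood above the other 2. Means were 9194 ± 2081 (SD, n = 2) and 27520 ± 8242 (SD, n = 3), and the log2 fold change was 1.56 (SE 0.25). Its closest relative Akr1c20 had the smallest difference of the 7. It stood at 3492 and 3401 in Control and at 5730, 5738 and 7461 in Prox1 OE. The Control values were nearly equal, and the lowest Prox1 OE value was 1.64 times the higher of them. Means of Akr1c20 were 3447 ± 64.8 (SD, n = 2) and 6310 ± 997 (SD, n = 3), and the log2 fold change was 0.86 (SE 0.15). The ratio of Akr1c6 to Akr1c20 was 2.21 and 3.14 in the Control libraries and 3.94, 4.00 and 4.96 in the Prox1 OE libraries. The groups did not overlap in it, and this difference was not tested.

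Akr1c14, a 3-alpha-hydroxysteroid dehydrogenase that acts on dihydrotestosterone and other reduced steroids, stood at 4345 and 4897 normalised counts in Control and at 11929, 6486 and 10240 in Prox1 OE. Its groups lay closest together of the 7, since Prox1 OE replicate 2 was only 1.32 times the highest Control value. Means were 4621 ± 390 (SD, n = 2) and 9552 ± 2786 (SD, n = 3), and the log2 fold change was 1.00 (SE 0.24). Akr1c19, described with foreign alcohols, stood at 2240 and 2308 in Control and at 6190, 4656 and 4387 in Prox1 OE. The Control libraries differed by little, and the lowest Prox1 OE library was 1.90 times the higher of them. Means of Akr1c19 were 2274 ± 47.9 (SD, n = 2) and 5078 ± 973 (SD, n = 3), and the log2 fold change was 1.14 (SE 0.16).

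**Figure D3:**
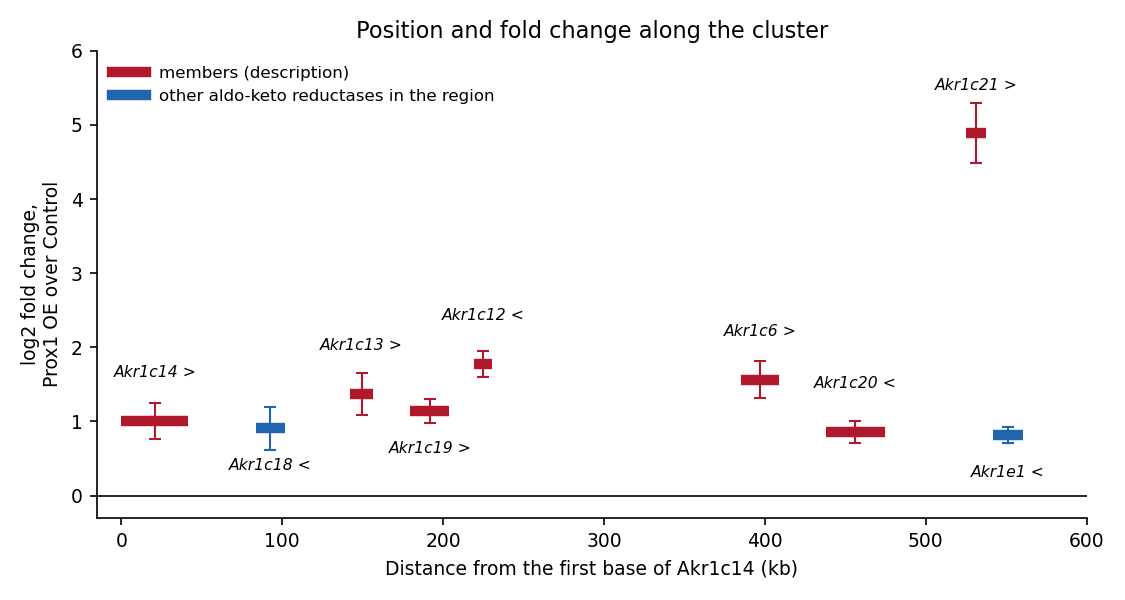
Log2 fold change of Prox1 OE over Control on the scale of log2(normalised count + 1) against position in kb from the first base of Akr1c14. Horizontal bars span each gene, vertical bars give the limma SE, and > and < mark the plus and minus strand. Akr1c21 (4.89) lies far above its neighbours Akr1c20 (0.86) and Akr1e1 (0.81), and the other members lie between 0.86 and 1.77.

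Levels of different genes were compared per kilobase of exon, since long transcripts collect more reads. On this scale Akr1c6 led in both groups, with a mean of 4522 normalised counts per kb in Control and 13537 in Prox1 OE. In Control it was followed by Akr1c20 (1852), Akr1c14 (1427), Akr1c13 (1258), Akr1c12 (754), Akr1c19 (386) and Akr1c21 (7.25). In Control, the values of Akr1c14 and Akr1c13 were 1342 to 1512 and 1176 to 1339 per kb, so that these neighbours lay close but apart on this scale. In Prox1 OE, Akr1c20 (3391), Akr1c13 (3384), Akr1c14 (2949) and Akr1c12 (2571) followed, and each overlapped the next in this order, while every Akr1c20 value was above every Akr1c12 value. Akr1c19 (862) and Akr1c21 (244) lay below them. The place of Akr1c19 rests on an annotated transcript of 5832 bases, while its coding sequence is as long as that of the others. Taken over the longest transcript in place of all exons, Akr1c6 again led in both groups, and the Control values of Akr1c14 (1365 and 1538) and Akr1c13 (1336 and 1522) overlapped.

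The composition of the cluster shifted more for some genes than for others. Akr1c6 made up 41.2% and 46.9% of the summed level per kb in the Control libraries and 46.2%, 48.6% and 54.3% in the Prox1 OE libraries, so that the groups overlapped. Over the longest transcript the shares of Akr1c6 were 46.6% and 52.6% in Control and 52.6%, 54.5% and 60.1% in Prox1 OE, which touched without overlapping. On the exon scale, Akr1c20 made up 20.4% and 16.3% in Control and 12.8%, 13.3% and 12.0% in Prox1 OE, with no overlap. Akr1c21 went from 0.0593% and 0.0807% in Control to 1.56%, 0.835% and 0.482% in Prox1 OE, with no overlap. Akr1c12 made up 7.00% and 7.71% in Control and 10.8%, 9.38% and 8.74% in Prox1 OE, again with no overlap. The shares of Akr1c13, Akr1c14 and Akr1c19 overlapped between the groups. With so few libraries, groups often lie apart. Of the 17105 genes tested, 5279 lay apart with Prox1 OE higher and 5541 with Prox1 OE lower. Shares of the same sum cannot move independently, and no shift was tested.

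The 7 genes did not rank the 3 Prox1 OE libraries alike. Measured as the deviation from the mean of these libraries on the log2 scale, Akr1c21 stood at 0.72, -0.23 and -0.49 in replicates 1, 2 and 3. Prox1 stood at 1.55, -0.56 and -0.99 in the same libraries, the same order. Akr1c19, at 0.30, -0.11 and -0.19, also had this order. Akr1c13 had the opposite order, at -0.61, 0.19 and 0.42. Akr1c6 stood at -0.25, -0.22 and 0.47, and Akr1c20 at -0.13, -0.13 and 0.25, both highest in replicate 3. Akr1c12 (0.03, -0.23 and 0.20) and Akr1c14 (0.37, -0.51 and 0.15) were lowest in replicate 2. Albumin, the main hepatocyte product, had deviations of -0.02, -0.36 and 0.38. These orders over 3 libraries are a description, and no relation between genes was tested.

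**Figure D4:**
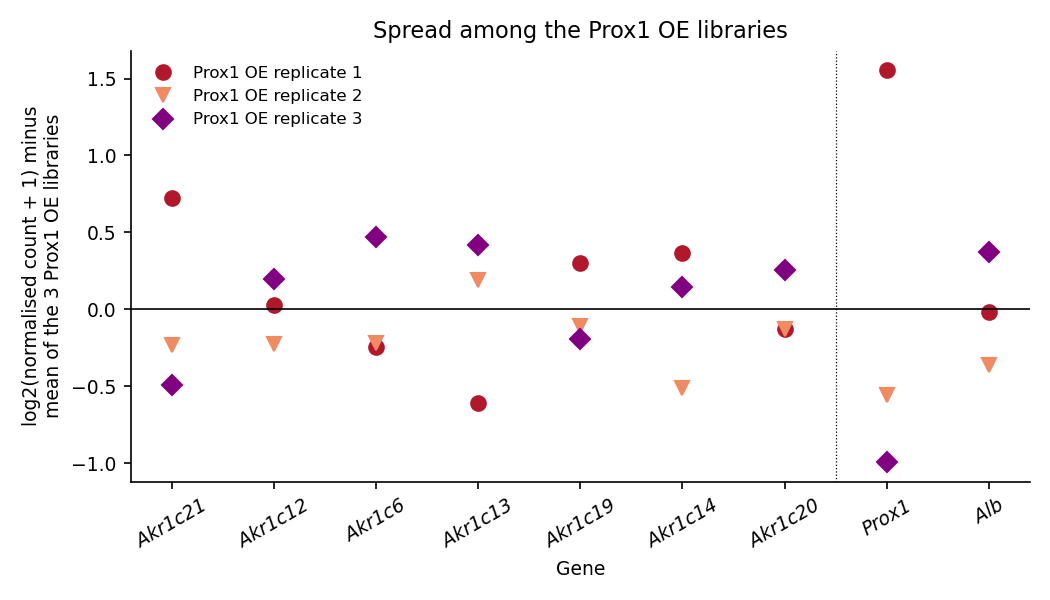
Deviation of each Prox1 OE library from the mean of the 3 Prox1 OE libraries in log2(normalised count + 1), for the 7 Akr1c genes, Prox1 and Alb. Points are single libraries. Akr1c21 has the same order of libraries as Prox1 (replicate 1 highest), Akr1c13 the reverse, and Akr1c6 and Akr1c20 are highest in replicate 3.

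Profiles over the 5 libraries were compared by the Euclidean distance of centred log2(normalised count + 1) values, among 12951 candidate genes with a mean of at least 100. The 3 genes closest to Akr1c21 were Spib (distance 1.01), Hamp2 (1.45) and Cyp2b10 (1.64). Spib, a transcription factor of lymphoid and plasmacytoid cells, stood at 142 and 93.2 normalised counts in Control and at 8114, 3310 and 2314 in Prox1 OE. Cyp2b10, a cytochrome P450 that responds to the receptor CAR, stood at 37.0 and 142 in Control and at 1596, 662 and 757 in Prox1 OE. The 3 closest to Akr1c20 were B2m (0.0965), Ndufaf6 (0.112) and Sbk1 (0.114). These distances were shorter than those for Akr1c21, and B2m had a log2 fold change of 0.79 beside 0.86 for Akr1c20. Among the 7 genes themselves, the closest profiles were Akr1c6 and Akr1c12 (distance 0.449) and Akr1c14 and Akr1c19 (0.561), neither of which is a pair of near copies.

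The other aldo-keto reductases were not all higher. Of 10 tested, 5 were called higher and 2 lower by limma with Benjamini-Hochberg adjustment over all genes, against 17.1% and 16.2% of all genes, and their median log2 fold change was 0.58. Akr1d1, the 5-beta-reductase that shapes the steroid ring of bile acids, was higher by 1.97 on the log2 scale (SE 0.30, limma adjusted p 0.0040), with 705 and 1181 normalised counts in Control and 4403, 2489 and 4163 in Prox1 OE. Akr7a5, an aldehyde reductase that acts on aflatoxin dialdehyde, was higher by 1.35 (limma adjusted p 0.0028). Akr1e1, which lies next to Akr1c21 and reduces anhydrofructose, was higher by 0.81 (limma adjusted p 0.0030). Akr1a1, the general aldehyde reductase, was higher by 0.54 (limma adjusted p 0.027), and that call was lost with total count scaling and under 5 other alternatives.

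Akr1c18, the 20-alpha-hydroxysteroid dehydrogenase that inactivates progesterone, lies inside the cluster. It stood at 342 and 548 normalised counts in Control and at 944, 581 and 977 in Prox1 OE. The groups lay barely apart, since the lowest Prox1 OE value was 1.06 times the highest Control value. It was higher by 0.91 on the log2 scale (SE 0.29, limma adjusted p 0.046). The call did not hold when either Control replicate, Prox1 OE replicate 1 or Prox1 OE replicate 3 was left out, where log2 fold changes were 0.57, 1.25, 0.80 and 0.77. It was also lost with total count scaling, with no filter, without limma's trend and with the replicate block.

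Akr1cl, a further 1C-like gene, is on another chromosome and moved the other way. It stood at 975 and 1057 normalised counts in Control and at 96.1, 20.1 and 72.9 in Prox1 OE, and every Prox1 OE value lay far below both Control values. On the log2 scale the difference was -4.25 (SE 0.59, limma adjusted p 0.0033). Akr1b8, of the aldose reductase subfamily, was lower, at -1.56 on the log2 scale (limma adjusted p 0.0025), with 2446 and 3294 in Control and 1069, 1036 and 812 in Prox1 OE. Its relatives Akr1b10 (-0.48, limma adjusted p 0.072), Akr1b3, the aldose reductase (-0.06, limma adjusted p 0.79), and Akr1b7 (0.62, limma adjusted p 0.36) did not pass the threshold. Akr1b10 was called lower with DESeq2 (-0.49, Wald adjusted p 0.044) and with total count scaling (-0.91, limma adjusted p 0.0070).

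**Figure D5:**
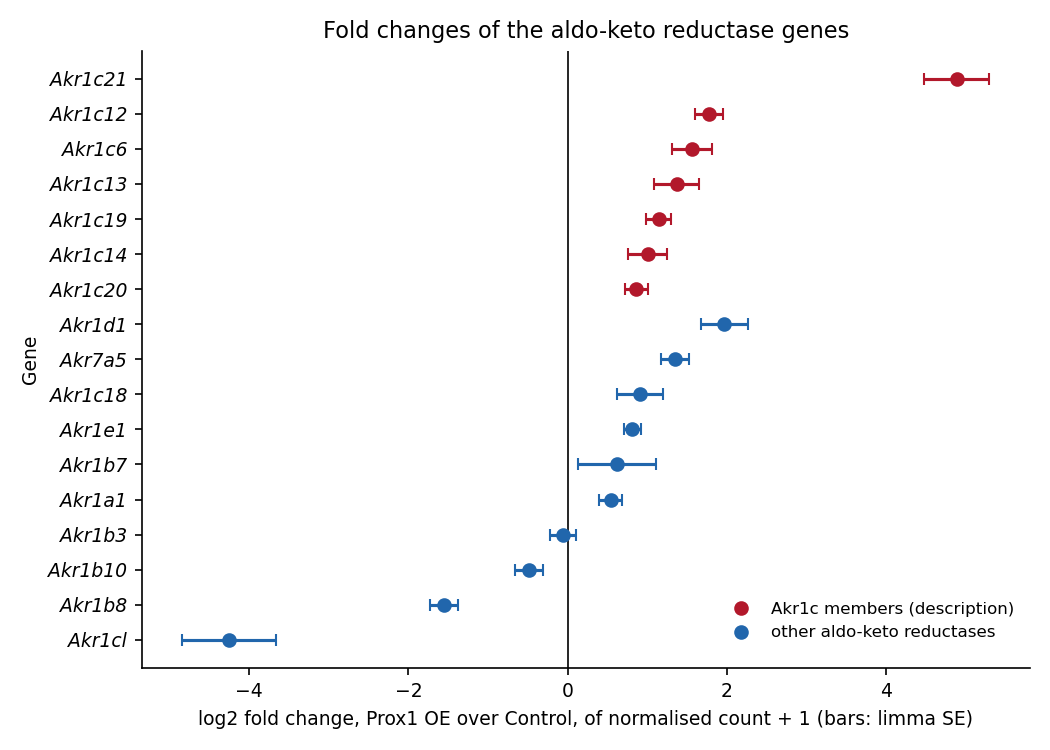
Log2 fold change of Prox1 OE over Control on the scale of log2(normalised count + 1), with the limma SE as bars, for the 7 Akr1c genes described (red, with no test) and the 10 other aldo-keto reductases (blue). Red points run from 0.86 to 4.89, and blue points from -4.25 (Akr1cl) to 1.97 (Akr1d1).

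Enzymes that share substrates with the cluster were counted next. The gene lists, here and below, were chosen with earlier results of these data known. Their counts are a description and not a test of the lists. Of 24 hydroxysteroid dehydrogenase genes, most of which belong to an unrelated protein family, 18 were tested, 13 were called higher and 1 lower, against 17.1% and 16.2% of all genes, and the median log2 fold change was 1.00. Of the rest, 5 had a mean under 10 and 1 had no matching symbol. Hsd17b6, which oxidises 3-alpha-reduced androgens, had 712 and 1408 normalised counts in Control and 2832, 5033 and 7548 in Prox1 OE. It was higher by 2.25 (SE 0.42, limma adjusted p 0.0079). Hsd17b13, a lipid droplet protein of hepatocytes, was higher by 1.61 (limma adjusted p 0.0023), and Hsd11b1, which regenerates active glucocorticoid, by 1.72 (limma adjusted p 0.0067). The single gene called lower was Hsd11b2, which inactivates glucocorticoid, at -4.47 (SE 1.22, limma adjusted p 0.028). Its value rests on Control replicate 2 with 639 normalised counts against 47.7 in replicate 1, and without that library the log2 fold change was -2.61 and the call was lost. It was also lost without Prox1 OE replicate 2 or replicate 3 (limma adjusted p 0.062 and 0.057), with no filter (0.055) and without limma's trend (0.073). Lrp2, a gene of kidney tubules, also stood out in that library, at 2209 normalised counts against 18.9 in Control replicate 1, while Umod, another kidney gene, was at 325 and 270 in Control replicates 1 and 2 and at 176, 2.36 and 1.16 in Prox1 OE. Akr1c21 was at 8.22 and 13.6 in the same Control libraries. The part of kidney RNA in these values was not tested.

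The 12 carbonyl reductase genes listed are of the short-chain family, which reduces some of the same ketones. Of them, 11 were called higher and 0 lower, against 17.1% and 16.2% of all genes, and Cbr2 did not pass (0.21, limma adjusted p 0.87). Dcxr was higher by 1.58 (limma adjusted p 0.0049), Dhrs9 by 1.46 (limma adjusted p 0.019) and Cbr1 by 1.45 (limma adjusted p 0.0024), and the median was 0.99. With Control replicate 1 left out, Dcxr, Dhrs9, Hsd17b6 and Hsd11b1 were no longer called. Of 4 reductases of the steroid ring, 2 were called higher and 1 lower, against 17.1% and 16.2% of all genes. So few genes give no result about the list. Those called higher were Akr1d1 and Srd5a1, a 5-alpha-reductase, the latter by 1.41 (limma adjusted p 0.0028). Srd5a2, the other main 5-alpha-reductase, was lower, at -1.30 (limma adjusted p 0.0057), a call lost without either Control replicate, and Srd5a3 did not pass (0.24, limma adjusted p 0.13).

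Prostaglandin enzymes and steroid hormone receptors were counted in the same way. Of 12 prostaglandin genes, 1 was called higher and 2 lower, against 17.1% and 16.2% of all genes, and the median was 0.03. Counts this near those shares are no result about the list. Ptgr2, which reduces a prostaglandin metabolite, was higher by 0.45 (limma adjusted p 0.025), and Ptgis, the prostacyclin synthase, lower, at -0.69 (limma adjusted p 0.034). The other gene called lower was Ptgs2, the inducible cyclooxygenase, at few counts, with 23.8 and 110 normalised counts in Control and 7.16, 10.6 and 11.6 in Prox1 OE (-2.31, limma adjusted p 0.031). Without Control replicate 2 its log2 fold change was -1.23, and the call was lost under 6 of 15 alternatives. The calls of Ptgr2 and Ptgis were lost in most leave-outs of a library, and that of Ptgr2 also with total count scaling (0.023, limma adjusted p 0.89) and with the replicate block (0.41, limma adjusted p 0.055). Of 5 steroid hormone receptors tested, 1 was called, Pgr, the progesterone receptor, which was lower at few counts, with 68.2 and 34.8 normalised counts in Control and 8.18, 23.6 and 12.7 in Prox1 OE, a call lost under 6 of 15 alternatives, among them the leave-out of either Control library. The oestrogen receptor Esr1 (0.71, limma adjusted p 0.061) did not pass.

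Transcription factors of hepatocyte and drug-response genes were 19, of which 8 were called higher and 2 lower, against 17.1% and 16.2% of all genes, with a median log2 fold change of 0.60. The count of lower factors is no result about the list. Nr1i3 (CAR), the receptor that drives drug-induced Cyp2b genes, had 613 and 1298 normalised counts in Control and 1748, 3244 and 3966 in Prox1 OE, higher by 1.66 on the log2 scale (SE 0.40, limma adjusted p 0.019). Hnf4a, a main activator of hepatocyte genes, was higher by 1.15 (limma adjusted p 0.0033). Among the others called higher were the xenobiotic receptor gene Nr1i2 (1.06), the bile acid receptor gene Nr1h4 (0.90), their partner Rxra (0.76) and Cebpa (0.66). Of the FOXA pioneer factors, Foxa3 was called higher (1.12, limma adjusted p 0.0073) and Foxa1 lower (-0.78, limma adjusted p 0.0044). Foxa2 did not pass (-0.33, limma adjusted p 0.059). It was called lower with DESeq2 (Wald adjusted p 0.037) and without Prox1 OE replicate 1 (limma adjusted p 0.027). Total count scaling also called Foxa2 lower (limma adjusted p 0.0046). Onecut1 was lower, at -1.87 (limma adjusted p 0.016). Nfe2l2, which encodes the oxidative stress factor NRF2, did not pass (-0.23, limma adjusted p 0.20). It was called lower with total count scaling (-0.66, limma adjusted p 0.0065). With Control replicate 1 left out, 2 of these factors were called higher, against 3.98% of all genes in that fit, and 1 lower. The calls of Cebpa and Rxra were also lost with total count scaling (that of Cebpa under 5 of 16 alternatives in all), that of Nr1i3 without Prox1 OE replicate 2 or without limma's trend, and those of Onecut1 and Foxa1 without Control replicate 2.

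Sequence upstream of the genes was examined because the 7 lie together. The RefSeq promoter table of GRCm38.p6 had an entry for 6 of the 7, and Akr1c20 had none. Windows of 250 bases before the RefSeq start were compared. RefSeq and GENCODE starts differ, so that the windows of Akr1c12, Akr1c13 and Akr1c6 reach 34, 37 and 37 bases into the GENCODE genes, those of Akr1c14 and Akr1c19 lie wholly inside them, and that of Akr1c21 ends at its start. The bases before the GENCODE gene of Akr1c12 (chr13:4279434-4279649, minus strand) and Akr1c13 (chr13:4190937-4191149, plus strand) are shown first because these near copies resemble each other outside the coding sequence too. Capitals mark bases that differ between them or have no counterpart.
Akr1c12: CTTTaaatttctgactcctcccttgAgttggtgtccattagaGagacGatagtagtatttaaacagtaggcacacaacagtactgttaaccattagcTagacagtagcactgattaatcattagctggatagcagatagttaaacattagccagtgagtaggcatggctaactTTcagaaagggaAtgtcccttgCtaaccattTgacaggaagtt
Akr1c13: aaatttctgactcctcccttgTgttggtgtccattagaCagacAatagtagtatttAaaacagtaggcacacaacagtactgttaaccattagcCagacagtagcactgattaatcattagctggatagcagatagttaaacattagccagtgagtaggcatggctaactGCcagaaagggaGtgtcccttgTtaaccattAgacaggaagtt

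The stretches shown had 9 substitutions, and 4 bases of Akr1c12 and 1 of Akr1c13 had no counterpart. Over the whole windows the pair was 92.5% identical. The next most alike pair, Akr1c13 and Akr1c19, was 58.7% identical, and all further pairs were below that. Akr1c12 and Akr1c13 were thus alike in these windows as well as in coding sequence, and the ratio of their normalised counts was 1.08 in Prox1 OE replicate 1 and 0.483 to 0.596 elsewhere.

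The gene with the largest difference, Akr1c21 (chr13:4573825-4574074, plus strand), and the most abundant gene, Akr1c6 (chr13:4434093-4434305, plus strand), are shown for contrast, again up to the GENCODE gene. Capitals mark TGTTTA, the core of forkhead factor motifs, read as TAAACA on the other strand.
Akr1c21: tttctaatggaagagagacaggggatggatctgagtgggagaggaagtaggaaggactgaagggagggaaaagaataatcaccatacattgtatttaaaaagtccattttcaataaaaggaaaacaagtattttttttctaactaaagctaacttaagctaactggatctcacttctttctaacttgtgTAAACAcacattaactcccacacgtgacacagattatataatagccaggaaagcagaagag
Akr1c6: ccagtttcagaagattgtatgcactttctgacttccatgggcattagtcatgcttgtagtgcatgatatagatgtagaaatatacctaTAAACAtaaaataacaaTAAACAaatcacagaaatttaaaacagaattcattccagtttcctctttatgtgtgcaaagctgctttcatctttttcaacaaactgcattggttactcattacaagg

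Short motifs were searched on both strands, in letters chosen with the results of these genes known. TGTTTA was in 6 of 6 windows of 250 bases, against 12.0% of all 32851 RefSeq promoters of this length. Akr1c12 and Akr1c13 are near copies and do not count separately, and a match in Akr1c6 overlapped a TATA box match. The 6 sequences held 57.6% to 66.0% A and T, where the median over all promoters was 47.6%, and the part of this composition in the matches was not tested. Akr1c18 and Akr1e1, in the same region, had no match, and Akr1cl had one or more. The HNF4 half-site AGTCCA was in Akr1c14 and Akr1c21 (11.5% of all promoters). TATAAA was in Akr1c6 alone (12.4%), CCAAT in 3 of 6 (33.8%) and the antioxidant response core TGANNNNGC in Akr1c12 and Akr1c13 (35.2%). The CEBP core TTNNGCAA (9.56% of all) and the hormone receptor half-site AGGTCA (14.0%) were in 0 of 6. A match is a description of the letters and not a site of binding.

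Genes around the cluster were counted for comparison. Apart from the aldo-keto reductases Akr1c18 and Akr1e1, both given above, 9 other protein-coding genes lay within 500 kb, of which 4 were tested and 1 was called higher, against 17.1% of all genes, so that nothing is read from this count. Asb13 had 1419 and 1644 normalised counts in Control and 2760, 2452 and 2963 in Prox1 OE, higher by 0.83 (limma adjusted p 0.0047), a call lost without Control replicate 1 (0.72). Gdi2 (0.12, limma adjusted p 0.49), Net1 (0.26, limma adjusted p 0.21) and Fam208b (-0.40, limma adjusted p 0.11) did not pass. Calm4, Calm5, Tubal3 and Ucn3 had 3 reads or fewer in every library, and Calml3 was under the filter. Of 10 other annotated genes inside the cluster, Akr1c18 and the lincRNA Gm48010 had enough counts for a test, and Gm48010 did not pass (0.73, limma adjusted p 0.31).

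Markers of liver cell types also differed between the groups. Of 12 hepatocyte markers, 10 were called higher, against 17.1% of all genes, with a median log2 fold change of 1.78. Most of these calls were lost with Control replicate 1 left out, a fit that leaves 1 Control library. Summed normalised counts of the hepatocyte markers were 713289 to 1159204 in Control and 2360529 to 3723130 in Prox1 OE. Of the 7 Akr1c genes, Akr1c21 alone lay above that median, and Akr1c12 at 1.77 lay next to it. Of 8 cholangiocyte markers, 6 were called lower (median -1.21), against 16.2% of all genes, led by the keratin genes Krt7 (-2.50) and Krt19 (-2.41). Sums over all 8 were 767727 to 838844 in Control and 529283 to 717184 in Prox1 OE. Most of that sum was Spp1, which was not called (-0.34, limma adjusted p 0.51), and without it the sums were 54095 to 55716 and 19965 to 28360. Markers of Kupffer cells (3 of 5 called higher, sums of 5332 to 8396 and 14400 to 23172), sinusoidal endothelium (3 of 5 called higher, sums of 4209 to 6079 and 8142 to 12454) and stellate cells (3 of 5 called higher, sums of 8643 to 9881 and 11460 to 13443) were in part higher too. Such short lists, set beside the 17.1% of all genes called higher, give no result about a cell type. In each of these 3 groups 2 of 5 markers did not pass, among them Lyve1 (-0.53, limma adjusted p 0.21) and Des (-0.32, limma adjusted p 0.33). Akr1c genes are also used by kidney and stomach, and of 6 markers of these tissues 3 were at or under 3 reads in every library (Slc34a1, Gkn1 and Muc5ac). The other 3 were lower or overlapped in Prox1 OE, and Atp4a was the one called (-0.79, limma adjusted p 0.046), a call lost under 9 of 16 alternatives, among them TMM factors, edgeR and the leave-out of either Control library. A single call among so few genes, against 16.2% of all genes called lower, is no result about these tissues. The part of these cell types in the Akr1c levels was not tested. Both hepatocyte and cholangiocyte markers were abundant in all 5 libraries labelled as transformed hepatocytes.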

How the data were processed

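The authors prepared stranded (dUTP) libraries from dissected tumour nodules, sequenced them with paired reads of 100 bases and aligned these with STAR to mm10. The counting tool, and how it handled reads that fit several genes, are not given in the sources used here. The deposited signal is a normalised count per gene, reads divided by a DESeq2 size factor. Whole reads were recovered for 100% of values (tolerance 0.01), and 0 columns of per-sample values were unassigned. A deposited table of the authors' own comparison (means, shrunken log2 fold changes, p-values and adjusted p-values) was not used. Ensembl identifiers were matched to GENCODE M21 of GRCm38 (55137 of 55397, 99.5%).

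Differences were fitted with limma 3.58.1 in R 4.3.3 (lmFit, eBayes with trend, two-sided) on log2(normalised count + 1), for 2 Control and 3 Prox1 OE libraries without covariates. Genes with a mean of at least 10 normalised counts were tested (17105), and p-values were adjusted after Benjamini-Hochberg (threshold 0.05). The log2(value + 1) scale understates the change of low genes. The scripts were tested on simulated data. The members and gene lists were chosen with earlier results of these data known. Genes named are the 7 members, Prox1, tested other aldo-keto reductases and regulators (some items, among regulators and motifs, are not reported here), of each enzyme list the 2 called genes with the largest absolute log2 fold change and a mean of at least 100, and the 3 genes with profiles closest to the members with the highest and the lowest log2 fold change. Other genes named (such as Hsd17b13, Hsd11b1, Srd5a3, Cbr1, Cbr2, Ptgs2, Pgr, Esr1, Alb, Lrp2, Umod, Lyve1, Des, Spp1, the neighbouring genes and those inside the cluster) were chosen after their values were seen. The alternatives changed scaling (TMM, upper-quartile, total count), the pseudocount (0.1 or 10), the filter (none, or a mean of 50), the trend (none), the tool on recovered reads (edgeR 4.0.16 quasi-likelihood, DESeq2 1.42.0) and the libraries (a replicate block, or each left out). Coding sequences were aligned in pairs from GENCODE M21 transcripts. Upstream sequences came from RefSeq (GRCm38.p6).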

Additional observations from a re-analysis of the deposited data

How the results depend on the processing

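The log2 fold changes of all 7 Akr1c genes were above 0 under all 16 alternatives, running from 0.43 for Akr1c20 with total count scaling to 5.22 for Akr1c21 without Control replicate 2. Scaling by total count shifted the median of all genes from -0.02 to -0.44 and turned 2933 higher and 2769 lower calls (51.4% higher) into 1475 and 6833 (17.8% higher). Under it the median of the 7 genes was 0.94, other aldo-keto reductases called higher numbered 3, genes of the steroid and prostaglandin lists, steroid hormone receptors included, called lower 11 in place of 5, regulators lower 7 and neighbouring genes lower 1, and log2 fold changes of Keap1 (-0.26), Rora (-0.41) and Stat5b (-0.24) changed sign. The number of lower genes in those lists was 1 with no filter, 3 with a mean of at least 50 and 1 without the trend. edgeR called 3077 higher and 2684 lower, and DESeq2 3467 and 3180.

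Leaving out each library in turn gave 681 to 3738 higher and 477 to 3753 lower genes, with the fewest without Control replicate 1, which leaves 1 Control library that is assumed to vary like the others. Over these leave-outs the median of the 7 genes ran from 1.24 to 1.67, and the number of them above 0 was 7 each time. Other aldo-keto reductases called higher ran from 3 to 4 and lower from 2 to 2, genes of the steroid and prostaglandin lists (receptors included) higher from 11 to 27 and lower from 0 to 4, regulators higher from 2 to 9 and lower from 0 to 3, neighbouring genes higher from 0 to 1 and lower from 0 to 1, and hepatocyte and cholangiocyte markers higher from 1 to 10 and lower from 4 to 7.

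Under other alternatives signs changed for 3 genes that were not called. Rora was at -0.020 with the replicate block and ran from -0.020 to 0.086 over the leave-outs. Akr1b3 was at 0.017 with upper-quartile factors and ran from -0.19 to 0.070 over the leave-outs, and Akr1b7, at 0.62, ran from -0.18 without Control replicate 2 to 1.42. The cause was not tested. Of 896 values for 56 named genes under the alternatives, 797 kept direction and side of the threshold, or for the members stayed within 1 SD of the replicates. Values of members that moved further numbered 5. They were Akr1c6 (1.13), Akr1c12 (1.34), Akr1c19 (0.71) and Akr1c20 (0.43) with total count scaling, and Akr1c21 (4.09) with a pseudocount of 10. Same-numbered libraries share only a number: deviations of the 2 pairs correlated at 0.14 and 0.02. The replicate block gave 2719 higher and 2543 lower calls and 3 higher other aldo-keto reductases, in place of 5, and 50 of 56 named genes kept their call. Identity over whole proteins was not run, and coding sequences were compared instead. At 10 and 16 reads, the Control level of Akr1c21 is limited by depth.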
